A study of Mus musculus with 4 samples.

Results

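The 10 histone acetyltransferase genes Ep300, Crebbp, Kat2a, Kat2b, Kat5, Kat6a, Kat6b, Kat7, Kat8 and Hat1 were examined for chromatin accessibility in old and young mouse bone mesenchymal stem cells (MSCs). Their peaks were chosen by position alone, as those that overlapped the gene or the 5 kb upstream of its start in the GENCODE vM21 annotation of GRCm38. All 10 genes were found among 21924 protein-coding genes, and 61 of the 117282 peaks of the table lay at them.

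ATAC-seq, in which a transposase cuts and tags open DNA, was performed on MSCs from old mice aged 18 to 22 months and from young mice aged 3 to 5 months, with 2 samples in each group and every culture kept at 2% O2. The methods name C57BL/6N mice and, for an experiment on oxygen in young males, bone cells of the hind limbs that were cultured and sorted as CD45-negative, TER-119-negative, CD140a-positive and Sca-1-positive. The animals and sorting of the old and young samples are not described separately. The sources used here do not say whether the samples of a group came from separate animals or cultures, so p-values measure only the spread between these samples, which may be technical.

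Each value was read as the number of counts in a peak per 10000000 of the library total, not divided by the width of the peak. On that reading, the library totals were 28600303 and 32559794 counts in old replicates 1 and 2, and 28259470 and 29413803 counts in young replicates 1 and 2. Over the peaks at the acetyltransferase genes, the count in a sample ranged from 5 to 1160, above the 3 counts that were taken as the floor. The libraries differed in their overall level, since the values of all peaks together held 43.8% and 50.3% of the library scale in old replicates 1 and 2 and 57.5% and 62.9% in young replicates 1 and 2. Mitochondrial peaks made up 15.7% and 6.52% of these sums in old replicates 1 and 2 and 13.5% and 14.5% in young replicates 1 and 2. With library totals that leave these peaks out, the median log2 fold change of the acetyltransferase peaks as deposited was -0.18 in place of -0.13. Values were therefore also divided by RLE factors (0.813, 1.01, 1.07 and 1.15 in the same order), which set the typical peak to no change. Fold changes are differences of log2(RLE-scaled value + 1), old minus young, unless the values are said to be as deposited, and the added 1 understates the change of weak peaks.

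Histone acetyltransferases move the acetyl group of acetyl-CoA onto lysines of histones, which loosens the contact of histones with DNA and creates binding sites for bromodomain proteins. They fall into the p300 and CBP pair of coactivators, the GCN5 and PCAF pair, the MYST family, and Hat1, which acetylates newly made histone H4 before it is built into chromatin. In bone stromal cells, p300 and CBP act as coactivators of transcription factors of the osteoblast lineage, and Kat6a and Kat6b are known from developmental disorders that include the skeleton.

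At a false discovery rate of 0.01, 0 of the 61 peaks differed between old and young MSCs (limma with Benjamini-Hochberg adjustment over all peaks), where 66 of all 117282 peaks, or 0.0563%, passed. The lowest adjusted p of the 61 peaks was 0.129, and limma-voom on the recovered counts also called 0. At an unadjusted p under 0.05 there were 8 of 61, 3 lower and 5 higher in old MSCs, a share of 13.1% beside 16.4% of all peaks. Of the 10 genes, 0 passed when the values of all peaks of a gene were summed (2 of 17284 genes passed, or 0.0116%), and 1 had an unadjusted p under 0.05, beside 8.34% of all genes. A value in bulk samples joins how many cells have a site open with how open it is in each, and these cannot be told apart here. An exact permutation test of 2 samples against 2 cannot go below p = 0.333.

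The sign of a typical difference depended on the scale. As deposited, the median log2 fold change of the 61 peaks was -0.13, where that of all peaks was -0.27. After RLE scaling it was 0.14, where that of all peaks was 0.0011. On both scales the acetyltransferase peaks thus lay above the median of all peaks, and this came from peaks away from the gene starts, whose median of 0.20 over 52 peaks contrasted with -0.044 over the 9 peaks at gene starts. The median over all 13101 promoter peaks was -0.039. The gap was wider among weak peaks, where the 15 acetyltransferase peaks under the lower quartile of value (7.98) had a median of 0.42, beside 0.018 for all peaks under that quartile. The other 46 had 0.038, beside -0.0022.

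As deposited, the old samples were both below the young ones at 16 of the 61 peaks, where 43.5% of all peaks had that order, and above both at 6, where 7.56% did. After RLE scaling the order was old lower at 7 peaks (24.2% of all peaks) and old higher at 17 (23.2% of all peaks). Over the 61 peaks together, the old samples differed from each other. Against the young mean, the median RLE-scaled difference over the 61 peaks was -0.011 in old replicate 1 and 0.27 in old replicate 2, where the medians over all peaks were -0.0050 and 0.0080. Old replicate 2 had the highest RLE-scaled value of the 4 samples at 34 of the 61 peaks, or 55.7%, beside 31.1% of all peaks. At the 15 weak peaks the old samples were alike only after RLE scaling, with medians of 0.44 in each, beside 0.031 and 0 over all weak peaks. Both old samples were then above both young samples at 9 of the 15, beside 7075 of 29321. As deposited, the medians were 0.054 in old replicate 1 and 0.32 in old replicate 2, beside -0.33 and -0.11 over all weak peaks. That order then held at 4 of the 15, beside 3514 of 29321.

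The calls depended on which library was left out. Without old replicate 1, 8 of the 61 peaks passed the false discovery rate of 0.01, 3 lower and 5 higher in old replicate 2, but so did 8.79% of all peaks, and 5 of the 10 gene sums passed together with 22.3% of all gene sums. That fit assumes that the lone old sample varies like the young ones. Without old replicate 2, 0 of the 61 peaks passed, while 1690 of all peaks did. The peaks called without old replicate 1 lay at Ep300 (2 peaks), Kat2b (3 peaks), Kat2a, Kat6b and Kat7, and the gene sums called were those of Ep300, Kat2a, Kat2b, Kat6b and Kat7.

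**Figure D1:**
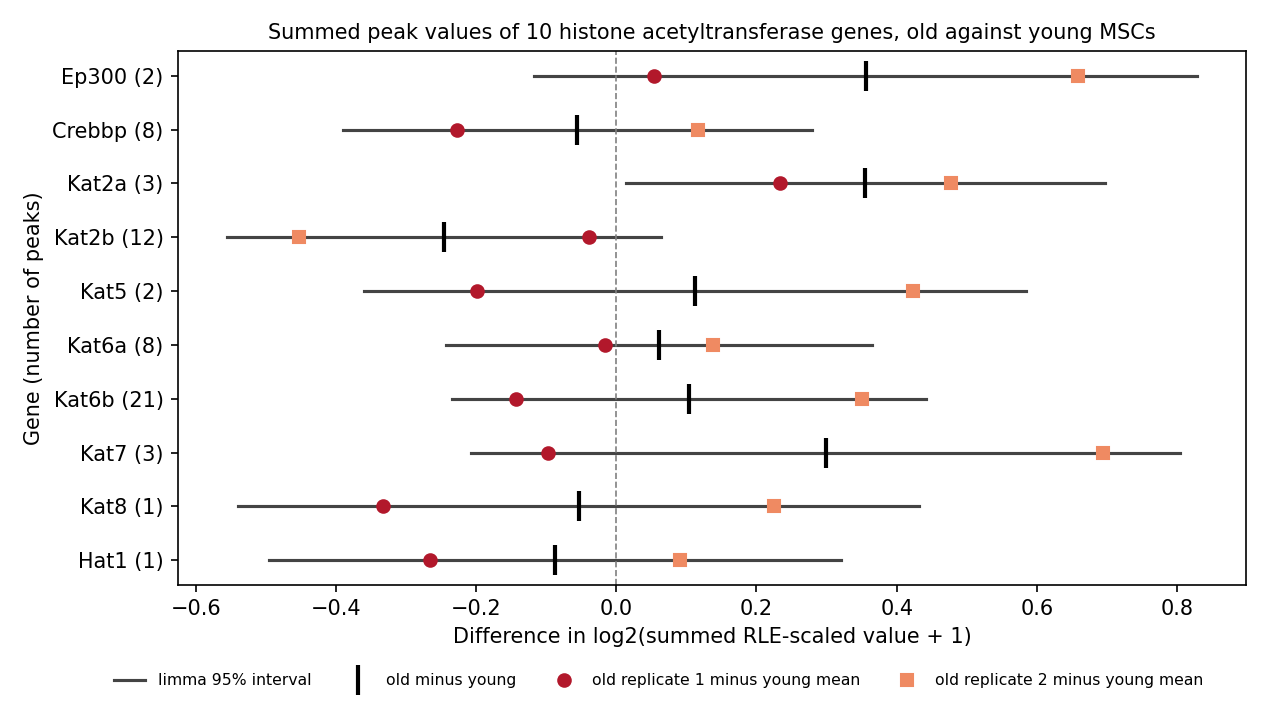
Difference between old and young MSCs in the log2 of the summed RLE-scaled value of each gene, with the number of its peaks in parentheses. Black ticks and lines give the limma estimate and its 95% interval, and the symbols give each old sample minus the mean of the young samples (n = 2 per group). Old replicate 2 lay above the young mean at every gene but Kat2b (-0.45), though as deposited Crebbp and Hat1 were below it too, and the 2 old samples of Kat7 lay at -0.097 and 0.69.

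The first pair, Ep300 and Crebbp, encodes p300 and CBP, the large coactivators that acetylate histones at enhancers and promoters. Ep300 had 2 peaks on chromosome 15, and the one over the gene start, from 81583801 to 81588000, had deposited values of 93.7 and 170 in old replicates 1 and 2 and of 139 and 117 in young replicates 1 and 2. The old samples enclosed both young samples, so the groups overlapped. Its log2 fold change was 0.27 (standard error, SE, 0.19, limma adjusted p = 0.506), and it was -0.013 on the values as deposited. Without old replicate 1 it was 0.55 and passed the threshold, and without old replicate 2 it was -0.00097.

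The other Ep300 peak, from 81649801 to 81651000, lay over the last exon of the gene, which is exon 31 and holds coding sequence. Its RLE-scaled values were 15.5 and 30.2 in old replicates 1 and 2 and 12.6 and 8.90 in young replicates 1 and 2. Both old samples were above both young samples, with old replicate 2 far above the rest. The log2 fold change was 0.97 (SE 0.32, limma unadjusted p = 0.00700, adjusted p = 0.134), and it was 1.43 without old replicate 1, where it passed the threshold, and 0.51 without old replicate 2. The counts behind it were 36, 99, 38 and 30, and on the values as deposited old replicate 1 (12.6) lay between the young samples (13.4 and 10.2).

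Crebbp had 8 peaks on chromosome 16. At its start, from 4211301 to 4215100, the deposited values were 76.9 and 121 in old replicates 1 and 2 and 123 and 125 in young replicates 1 and 2. Old replicate 1 was the low sample, and after RLE scaling (94.7, 120, 116 and 109) the groups overlapped. The log2 fold change was -0.077 (SE 0.17, limma adjusted p = 0.868). The 7 other peaks of Crebbp, in coding exons or introns, had log2 fold changes from -0.59 to 0.80. The ends of that range were both in introns, at 4204801 to 4205900 in intron 1 and at 4103101 to 4104000 in intron 19, with limma adjusted p = 0.300 and 0.234. Both were singled out because their unadjusted p was under 0.05, after the values were seen.

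Within a library, the ratio of the Crebbp to the Ep300 start peak does not depend on scaling between libraries. It was 0.821 and 0.708 in old replicates 1 and 2 and 0.890 and 1.07 in young replicates 1 and 2. Both old ratios were below both young ratios, with an exact two-sided permutation p = 0.333, the smallest that 2 against 2 can give. The summed values gave ratios of 1.46 and 1.21 in old and of 1.57 and 1.99 in young MSCs, in the same order.

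**Figure D2:**
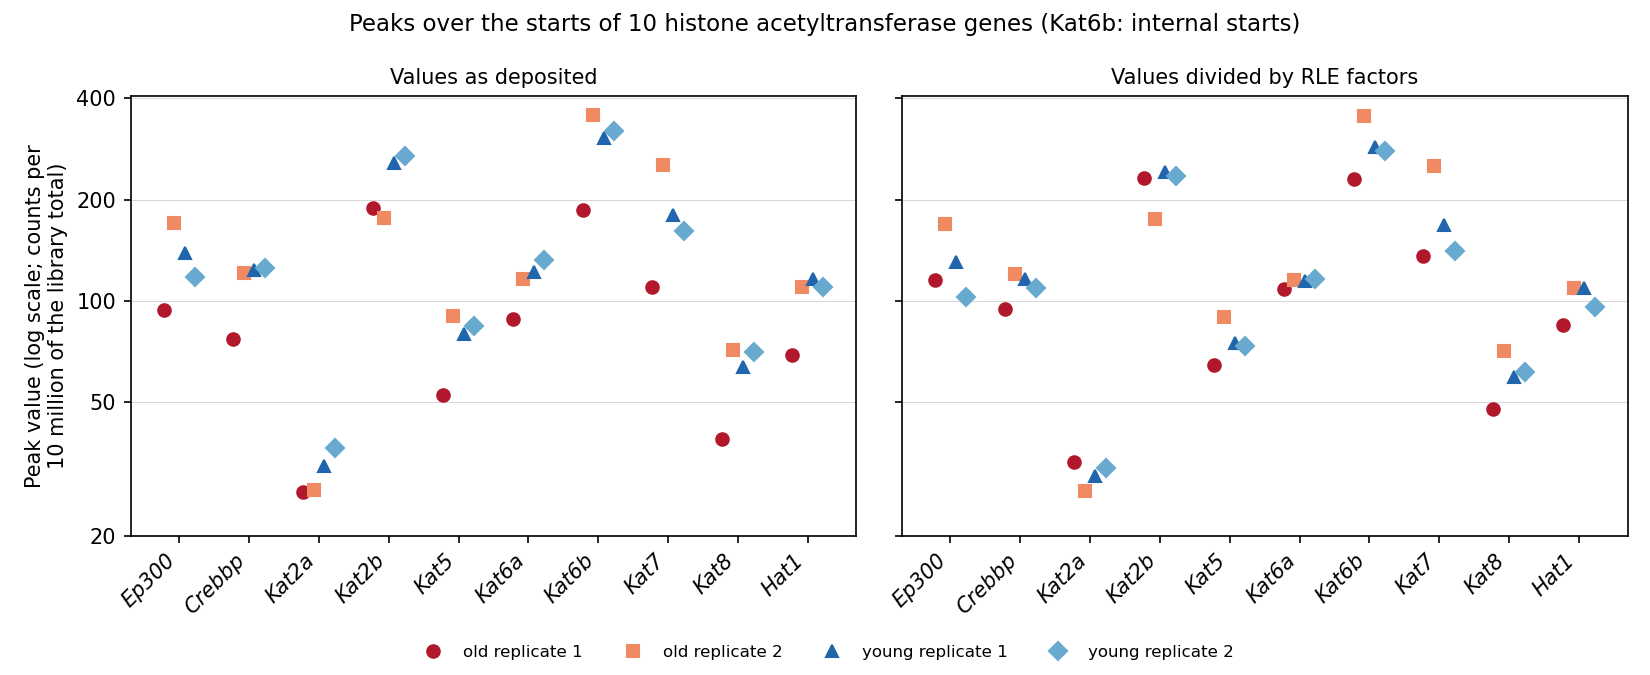
Values of the peak over the start of each gene in the 4 samples, as deposited (left) and after division by RLE factors (right), on a log axis in counts per 10000000 of the library total. For Kat6b, which had no peak within 1 kb of its annotated start, the peak over its internal coding starts is drawn. Each symbol is 1 sample. As deposited, old replicate 1 was the lowest sample at 8 of the 9 annotated gene starts, with Kat2b as the exception, and at 81.7% of all promoter peaks.

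The second pair, Kat2a (GCN5) and Kat2b (PCAF), encodes the related catalytic subunits of the SAGA and ATAC coactivator complexes. Kat2a is a short gene of 7720 bp on chromosome 11 with 3 peaks. Its start peak, from 100711401 to 100713000, had deposited values of 26.9 and 27.3 in old replicates 1 and 2 and of 32.2 and 36.4 in young replicates 1 and 2. It was the weakest start peak of the 10 genes, also per length, with old below young in both samples of each group as deposited. After RLE scaling the values were 33.1, 27.1, 30.2 and 31.8, which overlap, and the log2 fold change was -0.044 (SE 0.23, limma adjusted p = 0.947).

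The summed value of Kat2a had the lowest p of the 10 genes, and that difference was not at its own start. The RLE-scaled sums were 156 and 184 in old replicates 1 and 2 and 134 and 131 in young replicates 1 and 2, so that both old samples were above both young samples. The log2 fold change was 0.36 (SE 0.15, 95% interval from 0.014 to 0.70, limma unadjusted p = 0.0428, adjusted p = 0.591), and it was 0.068 on the values as deposited. The RLE-scaled log2 fold change was 0.48 without old replicate 1 and 0.23 without old replicate 2. The difference came from the 2 peaks that also hold the start of another gene. The peak from 100701001 to 100705100, over the last exon of Kat2a, covers the start of Dhx58, which encodes the RNA sensor LGP2, and the peak from 100713701 to 100715700 covers the start of the small heat shock gene Hspb9. Their log2 fold changes were 0.43 and 0.52 (limma adjusted p = 0.246 and 0.316). Without both peaks, an alternative chosen after the data were seen, the log2 fold change of Kat2a was -0.044 (95% interval from -0.53 to 0.44).

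Kat2b, on chromosome 17, had 12 peaks across 105860 bp, and it was the only gene of the 10 whose sum was lower in old replicate 2 than in the young mean after RLE scaling, where as deposited Crebbp and Hat1 were lower as well. As deposited, the old samples were both below the young ones at 8 of its 12 peaks, beside 43.5% of all peaks. After RLE scaling that order held at 4, beside 24.2% of all peaks, and the opposite order at 2, beside 23.2%. The summed RLE-scaled values were 951 and 714 in old replicates 1 and 2 and 950 and 1006 in young replicates 1 and 2. Only old replicate 2 stood apart from the young samples, and old replicate 1 lay just above young replicate 1. The log2 fold change was -0.25 (SE 0.14, 95% interval from -0.56 to 0.064, limma adjusted p = 0.639). Against the young mean it was -0.039 in old replicate 1 and -0.45 in old replicate 2, and on the values as deposited it was -0.53.

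At the annotated start of Kat2b, from 53565801 to 53570800, the RLE-scaled values were 232 and 175 in old replicates 1 and 2 and 242 and 235 in young replicates 1 and 2. The old samples were both below the young ones, old replicate 1 by little, with a log2 fold change of -0.24 (SE 0.15, limma adjusted p = 0.456). The neighbouring peak from 53582101 to 53588800, in the first intron, holds a further start of a coding transcript at 53584126. Its RLE-scaled values were 274 and 196 in old replicates 1 and 2 and 289 and 315 in young replicates 1 and 2. It was the highest peak of the gene, with both old samples again lowest and a log2 fold change of -0.38 (SE 0.15, limma unadjusted p = 0.0249, adjusted p = 0.232). It was -0.14 without old replicate 2 and -0.62 without old replicate 1. Without old replicate 1, this peak, the start peak and the sum of the gene passed the threshold.

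Further down the gene, the peak from 53649101 to 53651400 in intron 9 had the highest value per kb of Kat2b, with 74.0 as the mean of the 4 samples. Its log2 fold change was -0.30 (limma adjusted p = 0.370), and without old replicate 1 it was -0.44 and passed the threshold. The peak from 53663901 to 53665100 in intron 14 had RLE-scaled values of 11.2 and 12.5 in old replicates 1 and 2 and of 21.9 and 20.5 in young replicates 1 and 2. Here the replicates of a group lay close together, and both old samples were clearly below the young ones. The log2 fold change was -0.79 (SE 0.27, limma unadjusted p = 0.00852, adjusted p = 0.145), and it stayed between -0.86 and -0.72 when any 1 of the 4 samples was left out.

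**Figure D3:**
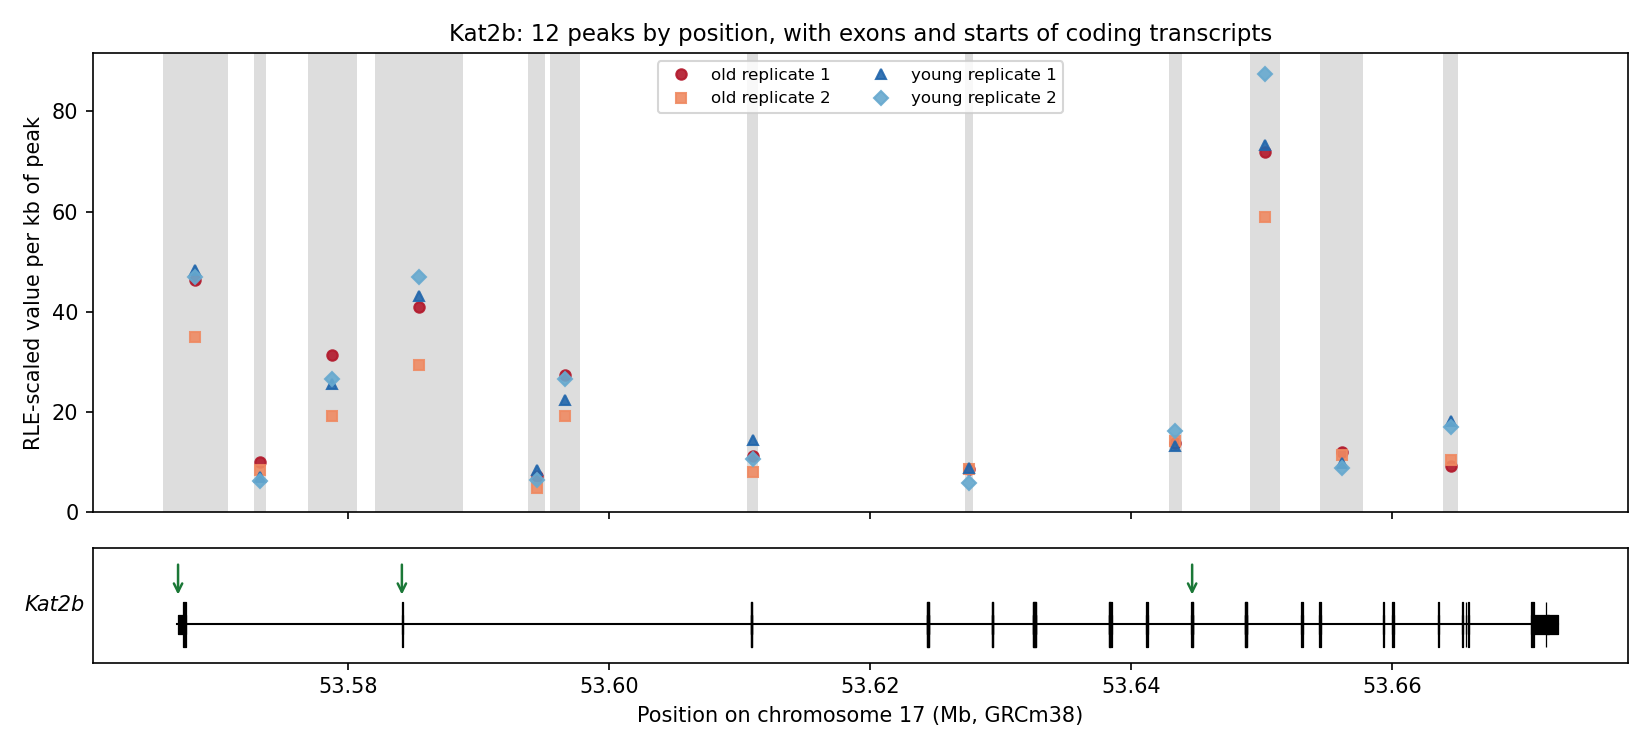
The 12 peaks of Kat2b (grey spans) along chromosome 17, with the RLE-scaled value per kb of peak in each of the 4 samples, above the exons of its coding transcripts (tall boxes, coding sequence) and their starts (arrows). Old replicate 2 is the lowest sample at the 2 peaks over the first and second coding start. In the peak of intron 14, from 53663901, both old samples lie below both young samples.

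The ratio of the Kat2b to the Kat2a start peak, again free of scaling between libraries, was 7.00 and 6.44 in old replicates 1 and 2 and 8.0 and 7.40 in young replicates 1 and 2. Both old ratios were below both young ratios (exact two-sided permutation p = 0.333). These ratios are of whole peaks of unequal width and serve to compare libraries. Per kb, the mean values of the 4 samples were 44.6 at Kat2b and 19.2 at Kat2a.

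The MYST family members Kat5, Kat6a, Kat6b, Kat7 and Kat8 share a catalytic domain and work in separate complexes. Kat5, the catalytic subunit of the TIP60 complex in DNA repair and transcription, had 2 peaks on chromosome 19. Its start peak, from 5608901 to 5610800, had deposited values of 52.4 and 90.0 in old replicates 1 and 2 and of 79.6 and 84.0 in young replicates 1 and 2. The old samples enclosed the young ones, and the log2 fold change was 0.038 (SE 0.20, limma adjusted p = 0.948). The other peak, from 5601501 to 5603500, covers the start of Rnaseh2c.

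Kat6a (MOZ) and Kat6b (MORF) encode paralogous acetyltransferases of histone H3. Kat6a had 8 peaks on chromosome 8, and its start peak, from 22858301 to 22862800, had deposited values of 88.1 and 116 in old replicates 1 and 2 and of 122 and 133 in young replicates 1 and 2. After RLE scaling these became 108, 115, 114 and 116, with a log2 fold change of -0.042 (SE 0.16, limma adjusted p = 0.929). The 7 other peaks of Kat6a had log2 fold changes from -0.38 to 0.61, none with an unadjusted p under 0.05 in the limma fit.

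Kat6b had 21 peaks along 191045 bp of chromosome 14, more than any of the other 9 genes. It was also the only one of the 10 genes with no peak within 1 kb of its annotated start (21481434), where 67.5% of all protein-coding genes had such a peak. The start of its long coding transcripts lies further in, and the peak there, from 21498401 to 21502000, holds 3 coding start positions. This peak, singled out after its values were seen, had deposited values of 187 and 356 in old replicates 1 and 2 and of 306 and 320 in young replicates 1 and 2. It was the strongest of the 61 peaks by value and per kb. Its mean of 81.2 per kb was above that of 95.7% of all promoter peaks, counted once per gene. The old samples enclosed the young ones, and the log2 fold change was 0.011 (SE 0.16, limma adjusted p = 0.983).

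Of the 20 other Kat6b peaks, 2 were among the 5 peaks away from annotated gene starts with the lowest p of all 10 genes. Both were weak and lay in intron 2. The peak from 21570101 to 21570800 had counts of 23 and 28 in old replicates 1 and 2 and of 13 and 11 in young replicates 1 and 2, and the one from 21520501 to 21521100 had counts of 14 and 31 against 10 and 10. As deposited, the first had values of 8.04 and 8.60 in old and of 4.60 and 3.74 in young MSCs, and the second of 4.90 and 9.52 in old and of 3.54 and 3.40 in young MSCs. In both, old samples were above young samples on either scale. The log2 fold changes were 1.10 (SE 0.36, limma unadjusted p = 0.00644, adjusted p = 0.129) and 1.05 (SE 0.38, unadjusted p = 0.0135, adjusted p = 0.176). Summed over the gene, the log2 fold change of Kat6b was 0.10 after RLE scaling and -0.19 as deposited. The RLE-scaled value was 0.35 without old replicate 1 and turned to -0.14 without old replicate 2. The ratio of the Kat6b to the Kat6a sum was 3.44 and 4.35 in old and 3.82 and 3.69 in young MSCs, and unlike the ratios of the other 2 pairs its groups overlapped (exact permutation p = 1).

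**Figure D4:**
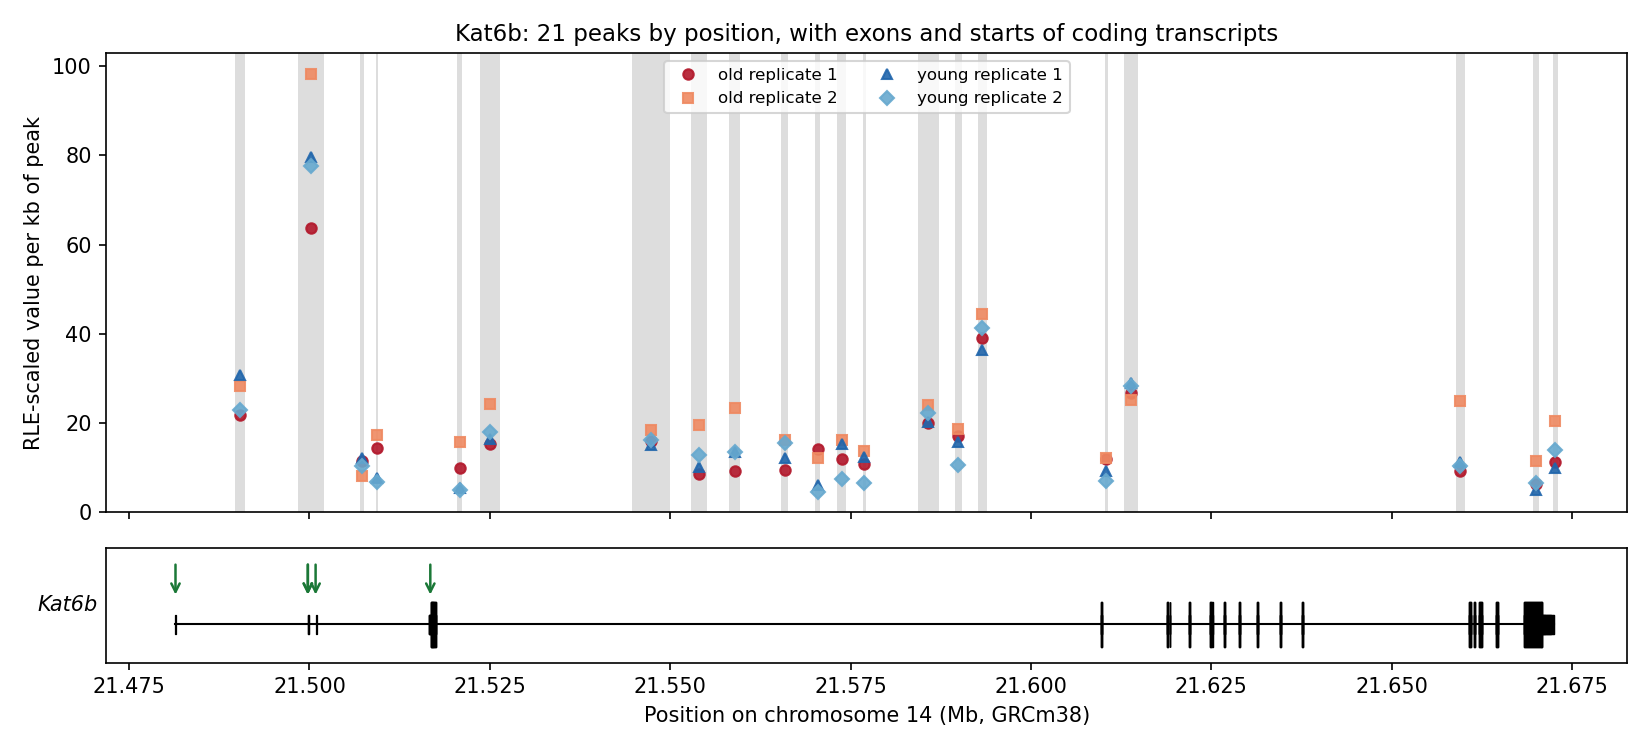
The 21 peaks of Kat6b (grey spans) along chromosome 14, with the RLE-scaled value per kb of peak in each of the 4 samples, above the exons of its coding transcripts (tall boxes, coding sequence) and their starts (arrows). No peak lies at the first arrow, the annotated gene start, and the strongest peak, from 21498401, spans the next coding starts.

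Kat7 (HBO1), which acetylates histones H3 and H4 and takes part in the licensing of replication origins, had 3 peaks on chromosome 11. Its start peak, from 95308801 to 95311200, had deposited values of 110 and 254 in old replicates 1 and 2 and of 179 and 161 in young replicates 1 and 2. Old replicate 2 was more than double old replicate 1, and the young samples lay between them. The log2 fold change was 0.26 (SE 0.21, limma adjusted p = 0.577). It was 0.71 without old replicate 1 and -0.18 without old replicate 2, and without old replicate 1 it passed the threshold (adjusted p = 4.46e-07). Kat7 and Kat2a lie on chromosome 11, where the median RLE-scaled difference from the young mean was 0.18 over all peaks in old replicate 2, beside 0.014 on the autosomes together, and 0.021 in old replicate 1. The part of that shift in the values of Kat7 and Kat2a was not tested.

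Kat8 (MOF), the catalytic subunit of the MSL and NSL complexes that acetylates histone H4, had 1 peak, on chromosome 7 from 127911801 to 127913200, over its start. The deposited values were 38.8 and 71.3 in old replicates 1 and 2 and 63.3 and 70.4 in young replicates 1 and 2. The old samples enclosed the young ones, and the log2 fold change was -0.054 (SE 0.21, limma adjusted p = 0.929). Hat1 also had 1 peak, on chromosome 2 from 71388501 to 71390400, over its start. Its deposited values were 68.9 and 109.6 in old replicates 1 and 2 and 116 and 109.8 in young replicates 1 and 2. Old replicate 1 was low and old replicate 2 was level with young replicate 2, and after RLE scaling the groups overlapped (log2 fold change -0.087, SE 0.18, limma adjusted p = 0.855).

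Per kb, the start peaks ranked from Kat6b (81.2, internal starts) over Kat7 (73.4), Hat1 (53.2), Kat2b (44.6), Kat8 (43.5), Kat5 (40.3), Ep300 (31.0), Crebbp (29.4) and Kat6a (25.5) to Kat2a (19.2), as means of the deposited values of the 4 samples. Of the 9 pairs of neighbours, 5 held this order within each of the 4 libraries (Kat7 above Hat1, Kat8 above Kat5, Kat5 above Ep300, Crebbp above Kat6a and Kat6a above Kat2a), and the others changed places in 1 library. The median over all promoter peaks was 30.3 per kb. Among promoter peaks counted once per gene (14792 genes), the Kat7 start peak ranked at 93.5% per kb and the Kat2a start peak at 25.2%.

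Promoter windows of 300 bases from RefSeq (GRCm38.p6) matched 9 of the 10 genes with 13 windows, all inside a peak, and there was no match for Kat6a. Their G and C content ranged from 47% to 82%, with a median of 57%, beside a median of 52.7% over 32851 windows of all genes, and they held from 5 to 49 CpG pairs. The motif CCAAT, searched on both strands, was in 6 of the 13 windows (37.4% of all windows), and GGGCGG, the GC box, was in 8 (35.7% of all windows). CCGGAAG, the core of ETS factor motifs, was in 4 (8.86% of all windows). TATAAA was in 0 of 13 (13.6% of all windows), and so was TGACGTCA, the cyclic AMP response element (1.79% of all windows). Overlapping copies were counted separately, and windows of one gene can share bases.

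The windows of the pair Kat2a and Kat2b and of the 2 strongest starts per kb, Kat6b and Kat7, are shown 5′ to 3′ on the strand of the gene, with CCAAT and GGGCGG in capitals on either strand (ATTGG and CCGCCC when reversed). The Kat2a window holds neither motif, the first Kat2b window holds 1 CCAAT, and the window at the second Kat2b start holds neither. Kat7 has 2 CCAAT, and Kat6b has 8 GGGCGG and the highest G and C content of the windows shown, at 78.3%. A further Kat6b window, from 21499535 to 21499834, overlaps the one shown and is left out.
Kat2a, chr11:100712418-100712717, minus strand: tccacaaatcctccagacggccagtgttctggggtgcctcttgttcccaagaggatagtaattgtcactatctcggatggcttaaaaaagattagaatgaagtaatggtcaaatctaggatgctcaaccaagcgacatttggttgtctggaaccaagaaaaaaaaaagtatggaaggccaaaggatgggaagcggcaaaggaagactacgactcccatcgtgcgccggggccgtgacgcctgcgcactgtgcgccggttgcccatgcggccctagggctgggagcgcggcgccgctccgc
Kat2b at its annotated start, chr17:53566721-53567020, plus strand: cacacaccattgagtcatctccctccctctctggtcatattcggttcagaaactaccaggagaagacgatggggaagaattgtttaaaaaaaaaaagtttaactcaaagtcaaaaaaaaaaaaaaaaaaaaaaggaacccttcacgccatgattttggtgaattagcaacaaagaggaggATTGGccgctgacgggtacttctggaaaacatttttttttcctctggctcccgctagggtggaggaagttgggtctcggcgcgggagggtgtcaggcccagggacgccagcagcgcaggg
Kat2b at its second coding start, chr17:53583876-53584175, plus strand: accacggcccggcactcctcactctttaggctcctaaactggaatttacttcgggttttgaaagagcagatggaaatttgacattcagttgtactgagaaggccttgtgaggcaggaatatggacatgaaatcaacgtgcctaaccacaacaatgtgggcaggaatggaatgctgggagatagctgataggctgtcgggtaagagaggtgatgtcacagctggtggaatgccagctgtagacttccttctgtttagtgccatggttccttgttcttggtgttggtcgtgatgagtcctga
Kat6b at its internal start, chr14:21499520-21499819, plus strand: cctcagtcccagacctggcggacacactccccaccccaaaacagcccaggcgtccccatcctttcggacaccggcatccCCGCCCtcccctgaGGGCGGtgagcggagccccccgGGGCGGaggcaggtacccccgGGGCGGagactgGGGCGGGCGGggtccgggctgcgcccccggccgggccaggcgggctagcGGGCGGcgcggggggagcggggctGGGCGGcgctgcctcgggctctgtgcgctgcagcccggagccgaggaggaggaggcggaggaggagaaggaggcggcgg
Kat7, chr11:95310197-95310496, minus strand: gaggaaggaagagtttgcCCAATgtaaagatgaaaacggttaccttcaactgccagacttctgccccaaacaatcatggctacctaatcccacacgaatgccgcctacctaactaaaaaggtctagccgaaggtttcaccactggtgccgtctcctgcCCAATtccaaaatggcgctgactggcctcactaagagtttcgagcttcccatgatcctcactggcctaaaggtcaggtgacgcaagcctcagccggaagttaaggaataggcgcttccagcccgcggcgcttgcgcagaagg

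The acetyltransferases act in complexes, and the summed values of 70 genes of their partners were compared in the same way. All 70 had a peak, 0 passed the false discovery rate of 0.01 (limma), beside 0.0116% of all genes, and 3 had an unadjusted p under 0.05, beside 8.34% of all genes. Their log2 fold changes were below 0 at 43 and above 0 at 27, where 52.6% of all genes were below 0. Their median was -0.045, beside -0.013 for all genes and 0.082 for the 10 acetyltransferase genes. The 20 SAGA and ATAC partners had a median of -0.053, with 13 below 0. Dr1, a subunit of the ATAC complex, had the lowest p in the list, with RLE-scaled values of 127 and 130 in old and of 163 and 164 in young MSCs. The old samples were both below the young ones (log2 fold change -0.35, limma adjusted p = 0.586).

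The 14 TIP60 partners had a median of -0.060, with 10 below 0. Their gene with the lowest p was the actin-related Actl6a, with RLE-scaled values of 241 and 218 in old and 274 and 293 in young MSCs (log2 fold change -0.30, limma adjusted p = 0.592). The 9 partners of Kat6a, Kat6b and Kat7 had a median of -0.076, led by the histone reader Ing5 (-0.22, adjusted p = 0.645). The 11 MSL and NSL partners of Kat8 had a median of -0.011, led by the scaffold Kansl1 (-0.27, adjusted p = 0.592), and the 5 partners of Hat1 had a median of 0.0048, led by the histone chaperone Asf1a (-0.27, adjusted p = 0.618). Among the 11 recruiters and cofactors of p300 and CBP the median was -0.039, and the leading gene, the CREB coactivator Crtc1, was higher in the old samples, with RLE-scaled values of 395 and 495 in old and 374 and 322 in young MSCs (log2 fold change 0.35, limma adjusted p = 0.586).

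The label of the cells was compared with markers. All 8 MSC and stromal markers (Pdgfra, Ly6a, Prrx1, Runx2, Thy1, Nt5e, Cxcl12 and Col1a1) had a peak within 1 kb of their start, with values per kb from 14.1 for Prrx1 to 35.1 for Runx2 as means of the 4 samples. Cdh5 among 3 endothelial and Cdh1 among 2 epithelial markers had no such peak. The other markers of these lists had values per kb of 23.9 (Tek), 14.5 (Pecam1) and 9.39 (Epcam), so the range of the endothelial markers overlapped that of the MSC markers. The MSC marker peaks summed to 1617 and 2626 in old replicates 1 and 2 and to 2159 and 2332 in young replicates 1 and 2 as deposited, and the groups overlapped. Pecam1 and Tek summed to 28.0 and 37.8 in old and to 61.6 and 60.5 in young MSCs as deposited, and to 34.4 and 37.5 in old and 57.7 and 52.8 in young MSCs after RLE scaling. Their sum was lower in both old samples on either scale, which came from Tek (22.0 and 28.3 in old, 53.4 and 49.3 in young MSCs as deposited), while the groups overlapped at Pecam1 (5.94 and 9.52 in old, 8.14 and 11.2 in young MSCs). Epcam had 5.24 and 9.83 in old and 10.3 and 12.2 in young MSCs as deposited, but after RLE scaling (6.45 and 9.76 in old, 9.62 and 10.7 in young) the groups overlapped. The part of such cells in the values of the acetyltransferase genes was not tested.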

How the data were processed

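Each of 117282 peaks has a value in 2 old and 2 young MSC samples. The deposited values, named RPKM by the authors, were treated as a score, since each was a whole multiple of 1 step per sample (100% within a tolerance of 1e-06) whatever the width of the peak. They were read as counts per 10000000 of the library total, with 1 step taken as 1 count. The whole multiples show a common step but not that scale. Read alignment with Bowtie2 and removal of duplicates with Picard are listed for these samples, without versions. The steps that led to the peak list are described in the methods for the oxygen experiment and not separately for these samples.

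Peaks were joined to protein-coding genes of GENCODE vM21 when they overlapped the gene or the 5 kb upstream of its start. A start peak lay within 1 kb of the annotated start. Values were divided by RLE factors, and old and young MSCs were compared on log2(value + 1) with limma 3.58.1 (trend and robust moderation) in R 4.3.3 with data.table version 1.17.8, per peak and on values summed per gene. Benjamini-Hochberg adjustment covered all 117282 peaks or all 17284 genes with a peak, at a false discovery rate of 0.01. Python 3.11.15, numpy 2.4.6, pandas 2.3.3, scipy 1.17.1 and matplotlib 3.10.9 were used for the other steps. The limma fit was also run on simulated counts, without RLE division and without a difference in level between libraries. That run cannot show how the procedure does on libraries that differ in level, as these do. On that reading, the step gave the library total of each sample. The floor of 3 counts corresponds to values of 1.05, 0.921, 1.06 and 1.02 in old replicates 1 and 2 and young replicates 1 and 2.

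All 10 members are named, 9 with their start peak and Kat6b, which had none, with the peak over its internal coding starts. The 5 other peaks of members with the lowest unadjusted p are named too. So is the gene with the lowest unadjusted p in each of 6 partner lists. Other peaks singled out in the text were chosen after their values were seen, namely the internal start peak of Kat6b, the intron 9 peak of Kat2b, the 2 intron peaks of Crebbp and the peaks of Kat2a and Kat5 over other gene starts. Members and lists were chosen with earlier results of these data known. Promoter sequences are from RefSeq.

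Alternatives were the values as deposited, quantile normalization, equal total signal, totals without mitochondrial peaks, added values of 0.1 and 5, a filter at the lower quartile, plain moderation, limma-voom on recovered counts, a replicate block, autosomes alone, a false discovery rate of 0.05, the gene body alone, a start window of 2 kb, and leaving out each sample. A crossed replicate block and gene sums without peaks over other gene starts were added after the data were seen.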

Additional observations from a re-analysis of the deposited data

How the results depend on the processing

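On the values as deposited, the median log2 fold change of the acetyltransferase peaks was -0.13 in place of 0.14, and that of their start peaks was -0.33 in place of -0.044. Deposited values keep the difference in level between libraries, which moved the median of all peaks to -0.27. With equal total signal the start peak median was 0.022. Leaving out 1 sample gave 0 to 3 acetyltransferase peaks lower and 0 to 5 higher in old MSCs and 0 to 5 gene sums at a false discovery rate of 0.01, and all calls came without old replicate 1, when 10313 of all peaks and 3857 of all genes passed. The medians then ranged from -0.011 to 0.27 (peaks, RLE), from -0.18 to 0.091 (start peaks, RLE) and from -0.44 to 0.14 (peaks, as deposited), and the cause was not tested. A lone sample was assumed to vary like the other group. In every other setting run, 0 acetyltransferase peaks and gene sums passed in limma, while the count over all peaks, 66 after RLE scaling, was 1385 as deposited, 95 with quantile normalization, 22 with equal total signal, 24 and 92 with added values of 0.1 and 5, 15 with the filter, 0 with plain moderation, 142 with limma-voom and 73 on autosomes, and 1690, 10 and 11 without old replicate 2, young replicate 1 and young replicate 2. Unadjusted, 8 of the 61 peaks had p under 0.05. With a replicate block, 0 acetyltransferase peaks or sums passed, with 1269 of all peaks and 58 of all genes. The crossed block, added after the data were seen, also gave 0, with 3219 and 155. Each block leaves 1 residual degree of freedom. Over all peaks, the deviations of old replicate 1 and young replicate 1 from their group means correlated at -0.0993 (RLE) and -0.102 (as deposited). Of 24 differences of single genes and peaks, in which Kat8 and Hat1 each count 2 times because their sum is their only peak, 12 changed sign in some setting that kept all samples (6 as deposited, 5 with equal total signal), and 15 when a sample was left out, 10 passing the threshold without old replicate 1. With 2 samples per group and standard errors of gene sums from 0.14 to 0.23, small differences cannot be measured.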
